A study of Danio rerio with 12 samples.

Results

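Glycolysis was followed through 35 zebrafish genes in RNA from macrophages and microglia of the larval eye. The genes encode the enzymes from hexokinase to lactate dehydrogenase, the glucose transporter GLUT1, the lactate transporter MCT4 and 3 regulators of the pathway. They were chosen by symbol, and all 35 symbols were found among the 25281 genes measured. Glycolysis splits glucose into pyruvate in the cytosol, and lactate dehydrogenase turns pyruvate into lactate, which monocarboxylate transporters carry out of the cell. Vertebrates hold several gene copies for most steps, and zebrafish often keep a further duplicate marked a or b. Photoreceptors are among the most glycolytic cells of the body, and macrophages raise glycolysis in many inflammatory settings.

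The cells were sorted by mCherry fluorescence from dissociated eyes after genetic ablation of the retinal pigment epithelium (RPE), the pigmented support layer behind the photoreceptors. Ablated larvae received 10 mM metronidazole (MTZ), the drug that triggers the ablation, for 24 h from 5 to 6 days post-fertilisation, and unablated larvae received none. The larvae were sampled 2 or 4 days after the injury (dpi), which gave 4 groups of 3 libraries (ablated at 2 dpi, unablated at 2 dpi, ablated at 4 dpi and unablated at 4 dpi). All larvae had been kept in 1.5X phenylthiourea, which blocks pigmentation, from 0.25 to 5 days post-fertilisation. Drug and ablation cannot be told apart, since no group had one without the other. The labels name neither the transgenes nor the promoters that drive them, nor do they say which cells the mCherry gate was meant to take beyond macrophages and microglia. Nothing states whether replicates came from separate pools of larvae, so the p-values measure the spread between these libraries, which may be technical.

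Each library came from at most 1000 sorted cells and held 19791633 to 38935355 counts over 16299 to 19601 genes. Macrophage genes were abundant: mpeg1.1, a macrophage perforin gene, averaged 1430 ± 219 TPM in ablated libraries and 1277 ± 302 TPM in unablated libraries at 2 dpi, and 1404 ± 205 and 1725 ± 253 TPM at 4 dpi (SD, n = 3 each). TPM is a transcript level corrected for gene length and depth. RNA of photoreceptors was also present, in very unequal amounts. A list of 55 photoreceptor genes took 1.68%, 0.250% and 0.0750% of counts in ablated libraries 1 to 3 at 2 dpi, against 14.9%, 13.1% and 0.0940% in unablated ones. At 4 dpi it took 0.0589%, 3.86% and 0.0495% in ablated libraries, against 0.658%, 0.0810% and 0.705% in unablated ones. The 3 libraries with at least 2% are called photoreceptor-rich below, and the 5 with under 0.2% photoreceptor-poor. In bulk RNA, a lower level of a gene can mean fewer cells of a type or less RNA per cell, and these cannot be told apart.

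The levels spanned more than 3 orders of magnitude, and most steps were dominated by 1 gene. The member with the highest TPM in all 12 libraries was gapdhs, a glyceraldehyde-3-phosphate dehydrogenase gene named after the mammalian sperm form, with a median of 3079 TPM. It made up at least 99.6% of the transcripts of its step in every library, while gapdh, the copy used as a reference gene in mammals, had a median of 4.58 TPM. After it in order of median TPM came pkma (pyruvate kinase, 770 TPM), aldoaa (aldolase A, 614 TPM), ldhba (lactate dehydrogenase B, 558 TPM) and tpi1b (triosephosphate isomerase, 528 TPM). These neighbours in the order overlapped in their ranges over libraries. The hexokinases, which trap glucose in the cell, and the phosphofructokinases, which set the pace of the pathway, were far lower: hk2 had a median of 20.6 TPM, hk1 18.3 TPM and pfkpa 12.3 TPM.

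**Figure D1:**
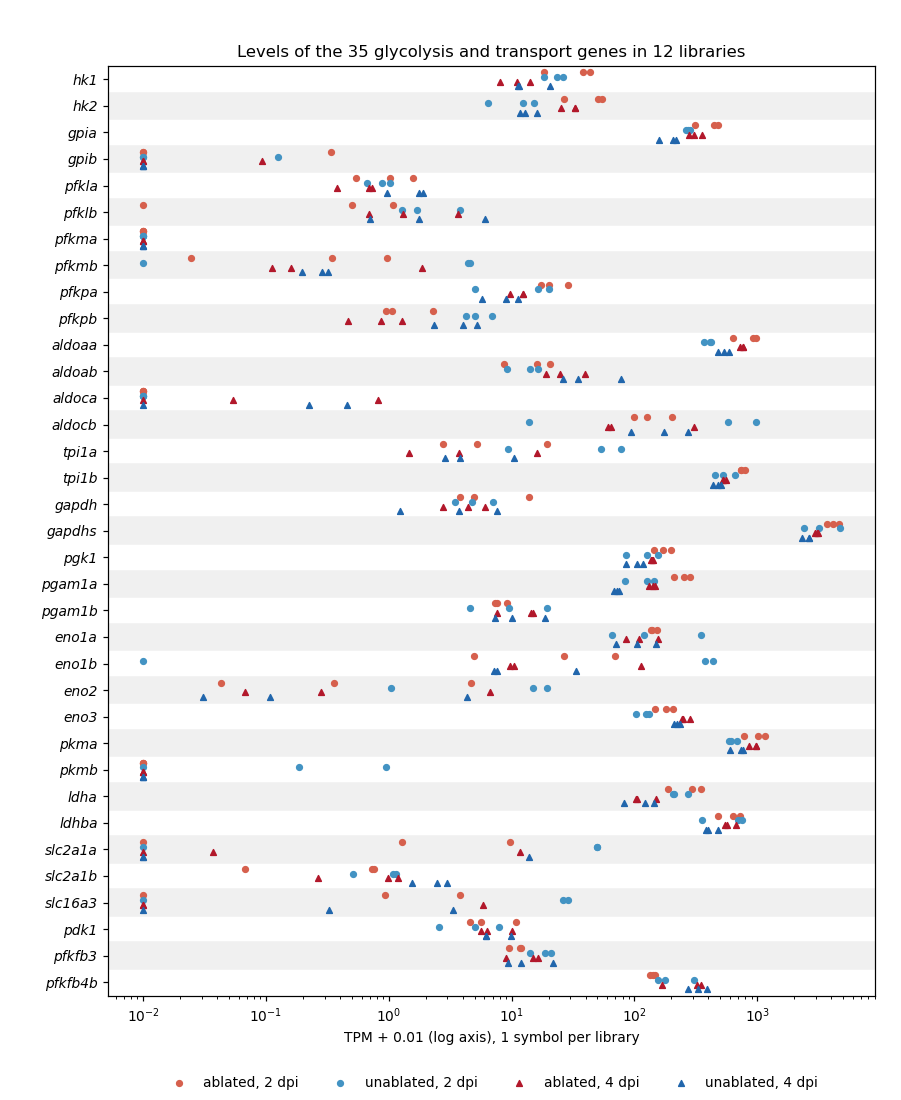
TPM (plus 0.01, log axis) of the 35 members, one symbol per library, with circles for 2 dpi and triangles for 4 dpi, red for ablated and blue for unablated; a symbol at the left edge is a level of 0. The symbols of gapdhs lie to the right of all others, and those of slc2a1a, slc16a3, eno1b and pfkmb spread over several orders of magnitude within a group.

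The enolase and lactate dehydrogenase steps carried a mixture of copies. Among enolases eno3, named after the mammalian muscle form, led with a median of 207 TPM and 55.2% of the step, although a list of 10 muscle genes took at most 0.00107% of counts in any library. Of lactate dehydrogenase transcripts, ldhba, the form typical of oxidative tissue in mammals, made up 56.5% to 84.3%, and ldha, the form typical of lactate-producing tissue, the rest. At the low end, pfkma had 0 counts in every library, and gpib, pkmb and aldoca were at 0 in 9, 10 and 8 of the 12 libraries. These 4 genes did not pass edgeR's default filter on low counts at 2 dpi, at 4 dpi or over the 12 libraries, which left 31 tested members at 2 dpi. At 4 dpi slc2a1a did not pass either, which left 30.

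A separate set of copies stood higher in the photoreceptor-rich libraries than in the photoreceptor-poor ones. A member is called photoreceptor-linked where its lowest level in the 3 photoreceptor-rich libraries (in CPM, counts scaled to library size) lay above its highest in the 5 photoreceptor-poor ones; the limits were set with the libraries' photoreceptor shares known, so this is a description. Of the 31 tested members 7 met it, against 10.8% of the 18079 genes tested: aldocb, tpi1a, eno1b, eno2, pfkmb, slc2a1a and slc16a3. No tested member showed the opposite order, which 2.77% of all genes did. The 7 include copies known from nerve tissue in mammals, namely aldolase C (aldocb) and neuron-specific enolase (eno2). They also include the transporters GLUT1 (slc2a1a) and MCT4 (slc16a3). Other retinal RNA was unequal as well. At 2 dpi 18 inner retinal neuron genes took 0.0117% to 0.389% of counts in unablated libraries and 0.000455% to 0.0498% in ablated ones. For 9 RPE genes the ranges were 0.000716% to 0.308% and 0.000116% to 0.00118%. Which of these cells the 7 came from was not tested.

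The transporters were close to absent in the photoreceptor-poor libraries, but did not follow the photoreceptor share in every other library. For slc2a1a, on chromosome 23 at 22200467-22212635 (GRCz11), the libraries held 9.73, 1.28 and 0 TPM in ablated eyes at 2 dpi, against 49.9, 49.3 and 0 TPM in unablated eyes. At 4 dpi they held 0, 11.7 and 0.0271 TPM in ablated eyes, against 13.9, 0 and 0 TPM in unablated eyes. The 0 in unablated library 3 at 2 dpi stands for 0 of 35469597 counts, which allows up to 3 counts or 0.0846 CPM by counting error alone. For slc16a3, on chromosome 12 at 33350256-33359654, the values were 3.80, 0 and 0.916 TPM in ablated eyes at 2 dpi, against 26.3, 28.9 and 0 TPM in unablated eyes, and 0, 5.79 and 0 TPM in ablated eyes at 4 dpi, against 3.33, 0 and 0.317 TPM in unablated eyes. In both genes the 2 highest libraries were the 2 unablated ones with the most photoreceptor counts, and the groups overlapped at both times. Below those, slc2a1a was higher in unablated library 1 at 4 dpi (13.9 TPM) than in the photoreceptor-rich ablated library 2 (11.7 TPM). Unablated libraries 1 and 3 at 4 dpi had similar photoreceptor shares, 0.658% and 0.705% of counts. Yet they held 13.9 and 0 TPM of slc2a1a, and 3.33 and 0.317 TPM of slc16a3. Neither library is rich or poor, so neither entered the rule for photoreceptor-linked members.

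The enolase copy eno1b showed the widest swing of the linked enzymes. It had 69.2, 26.7 and 4.94 TPM in ablated eyes at 2 dpi, against 374, 433 and 0 TPM in unablated eyes, and 9.66, 112 and 10.5 TPM in ablated eyes at 4 dpi, against 33.2, 7.57 and 7.23 TPM in unablated eyes. It made up 62.6% of enolase transcripts in unablated library 2 at 2 dpi and 0% in unablated library 3 of the same time, where eno3 made up 66.5%. Muscle-type phosphofructokinase pfkmb had 0.951, 0.336 and 0.0146 TPM in ablated eyes at 2 dpi, against 4.55, 4.40 and 0 TPM in unablated eyes, and 0.151, 1.86 and 0.103 TPM in ablated eyes at 4 dpi, against 0.313, 0.186 and 0.275 TPM in unablated eyes. Aldolase aldocb had 308 to 970 TPM in the photoreceptor-rich libraries and 13.7 to 99.4 TPM in the poor ones. The same ranges were 16.2 to 77.9 TPM and 1.44 to 9.36 TPM for tpi1a, and 6.60 to 19.4 TPM and 0.0333 to 1.03 TPM for eno2. These last 2 genes are neighbours on chromosome 19, 3485 bp apart on opposite strands with no other annotated gene between them. Among the poor libraries aldocb did not go with the photoreceptor share at 2 dpi. It had 99.4 TPM in ablated library 3 (0.0750% of counts) and 13.7 TPM in unablated library 3 (0.0940%).

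**Figure D2:**
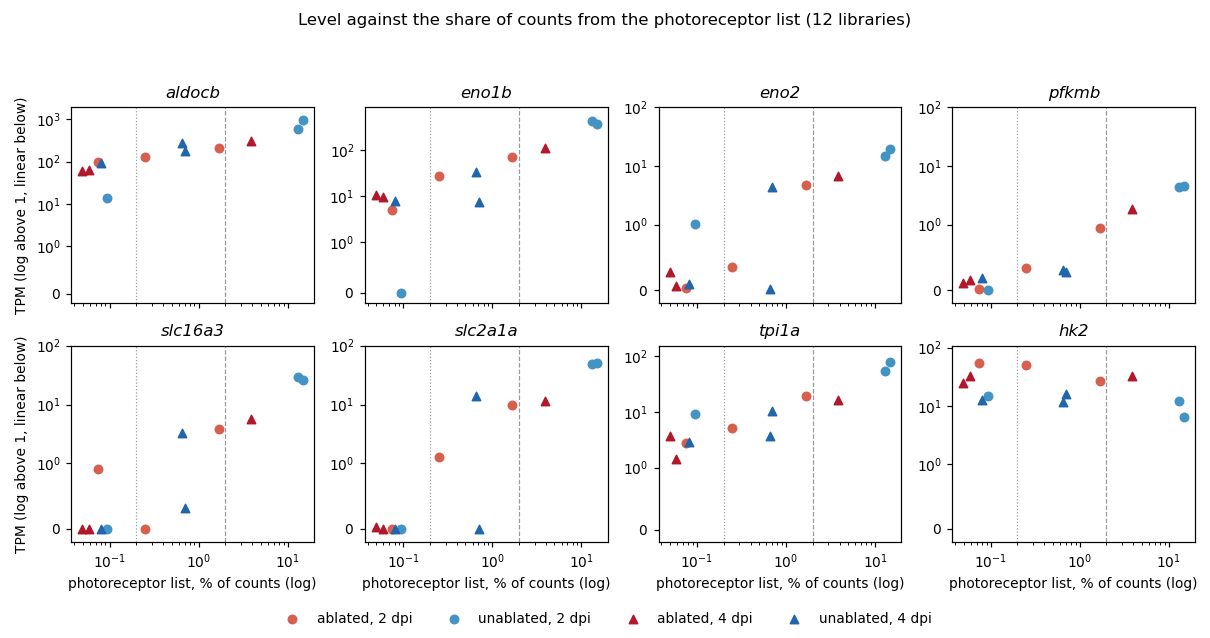
TPM (axis logarithmic above 1 and linear below) of the 7 photoreceptor-linked members, and of hk2 for comparison, against the percentage of counts in photoreceptor-list genes (log axis) in the 12 libraries; dashed and dotted lines mark 2% and 0.2%. The linked members are highest at the right of each panel, whereas hk2 has its lowest level, 6.36 TPM, in the library with the largest share, 14.9%.

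Some genes known from mammalian photoreceptors were not in that set. HK2, LDHA and the PKM2 form of pyruvate kinase are abundant in those cells. Here hk2 had 6.36, 12.3 and 33.0 TPM in the photoreceptor-rich libraries and 12.7 to 54.1 TPM in the poor ones, and the ranges of ldha and pkma in rich and poor libraries overlapped too. The 28 members outside the linked set summed to 7728, 10035 and 9415 TPM in ablated libraries at 2 dpi, against 8630, 6826 and 5433 TPM in unablated ones, and these overlapped. At 4 dpi they summed to 7363, 7705 and 6953 TPM in ablated libraries, against 6121, 5387 and 6306 TPM in unablated ones, which did not overlap. Of single genes, 15.2% were higher in this way at 4 dpi. The largest part of these sums was gapdhs, with 2945 to 3120 TPM in ablated libraries and 2328 to 2649 TPM in unablated ones. The 7 linked members summed to 311, 160 and 108 TPM in ablated libraries at 2 dpi, against 1522, 1163 and 24.1 TPM in unablated ones. At 4 dpi the linked members summed to 76.0, 462 and 75.6 TPM in ablated libraries, against 328, 104 and 196 TPM in unablated ones. Both pairs of groups overlapped.

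**Figure D3:**
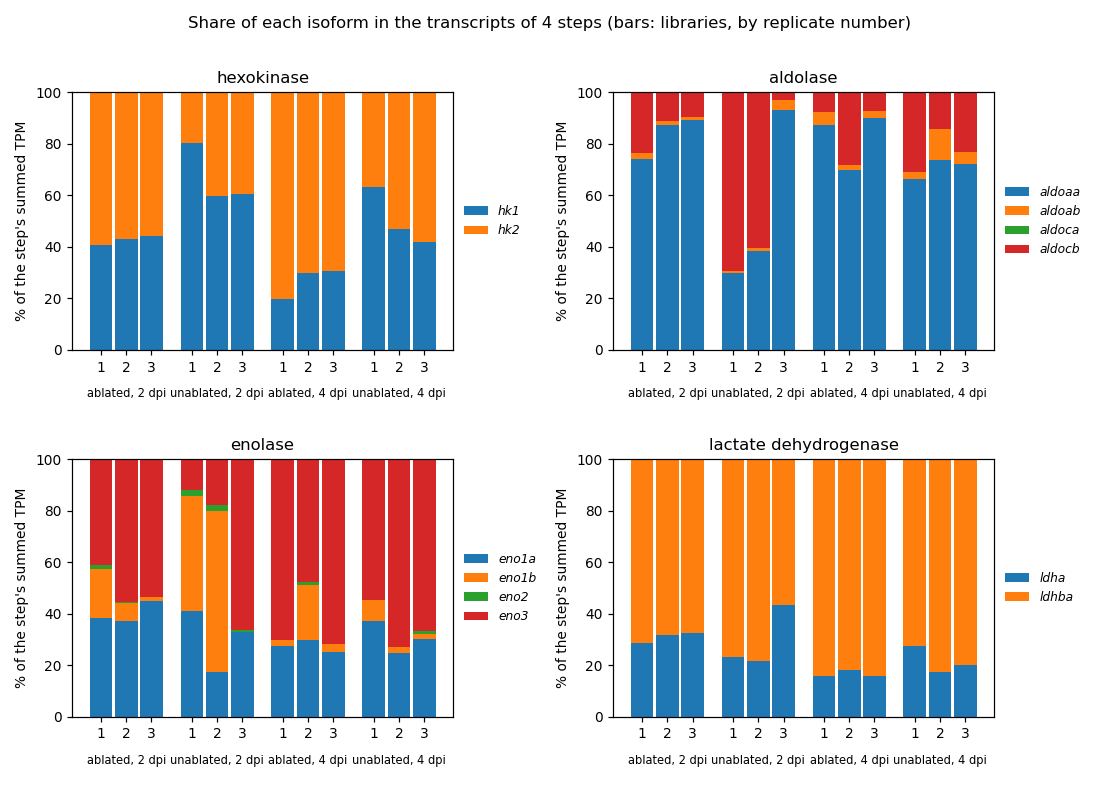
Share (%) of each gene in the summed TPM of its step for hexokinase, aldolase, enolase and lactate dehydrogenase, one bar per library, numbered by replicate within its group. In unablated libraries 1 and 2 at 2 dpi aldocb makes up 69.3% and 60.5% of aldolase, and hk2 makes up a larger share of hexokinase in every ablated library than in any unablated library of the same time.

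At 4 dpi, 3 enzymes of the pathway rose in ablated eyes: pgam1a (phosphoglycerate mutase), hk2 (hexokinase 2) and gpia (glucose-6-phosphate isomerase, the step after hexokinase). They were 3 of 30 tested members past an adjusted p of 0.05 (edgeR's quasi-likelihood test, Benjamini-Hochberg over all genes), beside 3.71% of the 16313 genes tested, or 1.83% counting rises alone. No member fell in edgeR's test. DESeq2 called 8 higher and 1 lower (7.17% and 7.03% of all genes) and limma voom 7 higher and 1 lower (4.71% and 4.81%), the lower one being pfkpb in both. Of the 30 log2 fold changes 21 were above 0, with a median of 0.24, beside -0.04 over all genes. In 10 members every ablated library lay above every unablated one, as did 15.2% of all genes, and in 3 (pfkpb, pfkla and slc2a1b) every ablated library lay below, again beside 15.2% of all genes. Leaving out ablated library 2 gave 4 calls, beside 8.32% of all genes. In contrast, leaving out any other single library at 4 dpi left 0 members called (and at most 38 of all genes). A fit over all 12 libraries called 1 of the 3, pgam1a, beside 1.23% of all genes.

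At 2 dpi no member passed in edgeR's fit of that time alone, and neither did any of the 16048 genes tested (0.0%). At an unadjusted p under 0.05 stood 7 members of 31, beside 16.8% of all genes. Other fits made calls. EdgeR over all 12 libraries called 4 members higher at 2 dpi (aldoaa, hk2, pgam1a and pkma) and 1 lower (pfkpb), beside 5.64% and 0.675% of all genes. DESeq2 called 2 members higher and 4 lower in ablated eyes, beside 5.52% and 3.74% of all genes. Limma voom called 2 higher and 2 lower, beside 5.0% and 1.08%. Limma on log2(TPM + 1) called 2 higher and on log2(TPM + 0.1) 1, beside 6.11% and 5.54%. Of the 31 log2 fold changes 16 were above 0, with a median of 0.03, beside -0.12 over all genes. In 7 members every ablated library lay above every unablated one, beside 22.1% of all genes, and in 4 every ablated library lay below, beside 6.35%. The smallest adjusted p in edgeR's fit of that time alone, 0.112, was that of aldoaa.

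The libraries of the 2 conditions also differed in other ways that move with these values. At 4 dpi a list of 11 epithelial genes took 0.0946% to 0.146% of counts in ablated libraries and 0.311% to 0.599% in unablated ones. Its gene epcam averaged 209 ± 121 TPM in ablated libraries and 1387 ± 95.0 TPM in unablated ones (SD, n = 3 each). The 12 macrophage markers took 1.14% to 1.27% in ablated libraries and 0.981% to 1.09% in unablated ones. Of these 12, 7 had log2 fold changes above 0 and 5 below. The 6 microglia markers took 2.26% to 3.90% in ablated libraries and 3.51% to 5.45% in unablated ones, which overlapped. Among these 6, 2 had log2 fold changes above 0 and 4 below. A list of 7 Müller glia genes, which also holds the microglia marker apoeb, took 2.30% to 4.05% and 3.87% to 5.67%. Mitochondrially encoded genes took 3.66% to 3.95% in ablated libraries and 3.23% to 3.26% in unablated ones. At 2 dpi the macrophage markers took 1.16% to 1.38% in ablated libraries and 0.509% to 1.19% in unablated ones, beside the photoreceptor shares above. The microglia markers took 0.889% to 2.71% in ablated libraries and 1.31% to 2.75% in unablated ones at that time. The part of these in the fold changes was not tested.

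**Figure D4:**
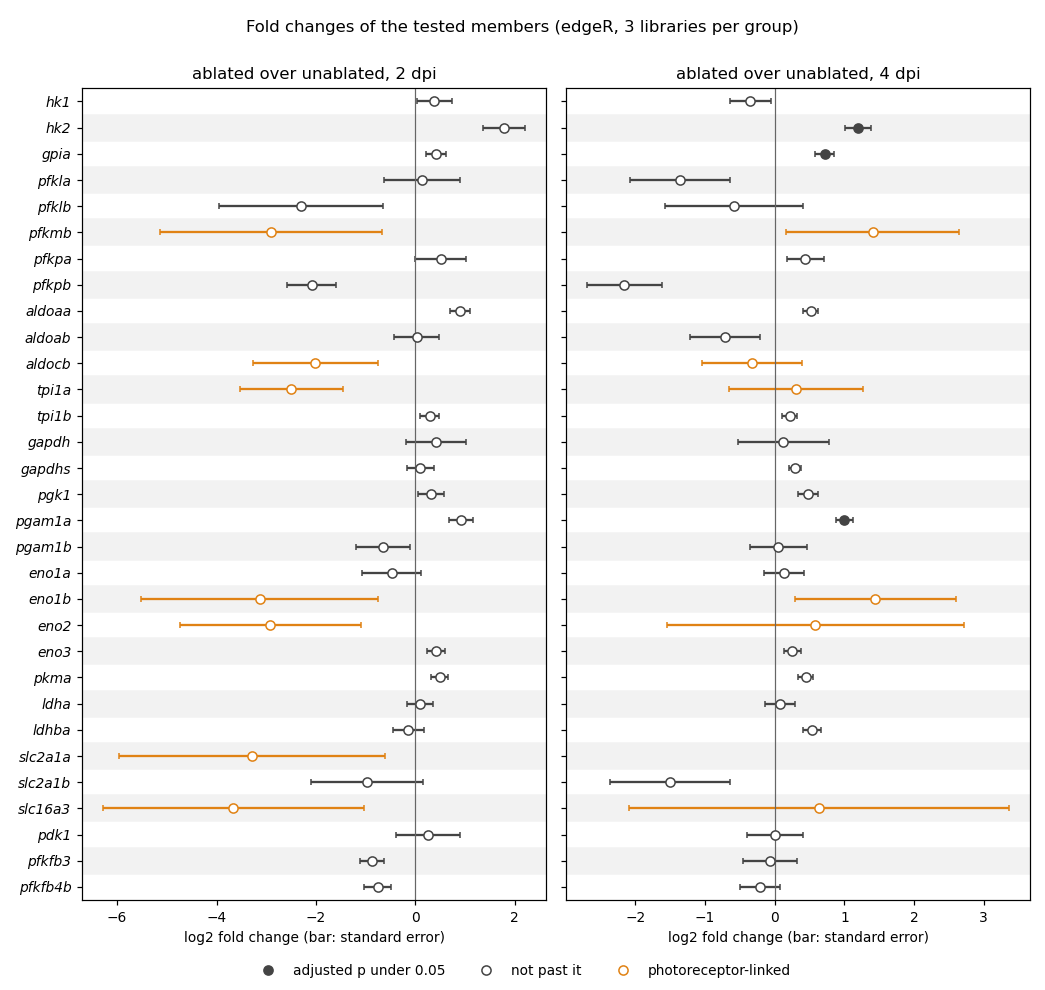
Log2 fold changes of the tested members, ablated over unablated, at 2 dpi (left) and 4 dpi (right), with standard errors from edgeR as bars (3 libraries per group); filled symbols passed an adjusted p of 0.05 and orange symbols are photoreceptor-linked. At 2 dpi the linked members lie at -3.66 to -2.02 with wide errors, and at 4 dpi the filled symbols are hk2, gpia and pgam1a.

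Hexokinase 2, the inducible form of the enzyme that traps glucose in the cell, had the largest fold of the 3. At 4 dpi hk2 (chromosome 5 at 13870340-14004206) had 32.7, 33.0 and 25.2 TPM in ablated eyes, against 11.8, 12.7 and 16.0 TPM in unablated eyes. All ablated libraries were above all unablated ones, and the log2 fold change was 1.19 (standard error 0.18, adjusted p = 0.0321, edgeR). At 2 dpi it had 26.7, 50.3 and 54.1 TPM in ablated eyes, against 6.36, 12.3 and 15.1 TPM in unablated eyes. The groups were again apart, with a log2 fold change of 1.78 (standard error 0.42) that did not pass (adjusted p = 0.123, edgeR). The constitutive hexokinase hk1 did not follow it, with log2 fold changes of 0.38 at 2 dpi and -0.35 at 4 dpi, neither past the threshold. Of hexokinase transcripts hk2 made up 59.2%, 56.8% and 55.7% in ablated libraries at 2 dpi, against 19.6%, 40.3% and 39.3% in unablated ones, and 80.2%, 70.2% and 69.4% in ablated libraries at 4 dpi, against 36.6%, 53.2% and 58.3% in unablated ones.

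The isomerase gpia (chromosome 25 at 35913614-35938996), which turns glucose 6-phosphate into fructose 6-phosphate, had 305, 357 and 276 TPM in ablated eyes at 4 dpi, against 207, 159 and 216 TPM in unablated eyes. The groups did not overlap and the log2 fold change was 0.72 (standard error 0.14, adjusted p = 0.0464, edgeR). At 2 dpi its levels were 313, 443 and 476 TPM in ablated eyes, against 285, 271 and 263 TPM in unablated eyes, also without overlap (log2 fold change 0.42, adjusted p = 0.349).

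At the phosphofructokinase step, where fructose 6-phosphate receives its second phosphate, the leading copy and its paralogue differed in sign. The leading copy pfkpa had 17.3, 28.7 and 20.3 TPM in ablated eyes at 2 dpi, against 20.1, 16.2 and 5.00 TPM in unablated eyes, and 9.73, 12.3 and 12.3 TPM in ablated eyes at 4 dpi, against 11.3, 5.73 and 8.96 TPM in unablated eyes. The groups overlapped at both times. Its paralogue pfkpb had 0.935, 1.04 and 2.29 TPM in ablated eyes at 2 dpi, against 4.27, 6.92 and 5.06 TPM in unablated eyes, and 0.456, 1.27 and 0.855 TPM in ablated eyes at 4 dpi, against 5.23, 4.04 and 2.34 TPM in unablated eyes. It was the 1 member whose ablated libraries all lay below the unablated ones at both times, with log2 fold changes of -2.09 (adjusted p = 0.122) and -2.16 (adjusted p = 0.0776), neither past the threshold of edgeR's test. DESeq2 and limma voom called it lower at both times. The liver-type copy pfkla stood at 25 to 119 counts per library at 4 dpi, with 0.676, 0.723 and 0.367 TPM in ablated eyes, against 1.88, 1.74 and 0.960 TPM in unablated eyes (log2 fold change -1.36, standard error 0.72, adjusted p = 0.360, edgeR). At 2 dpi it had 1.56, 0.527 and 1.02 TPM in ablated eyes, against 0.872, 1.02 and 0.657 TPM in unablated eyes, and the groups overlapped.

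The aldolase aldoaa, which cleaves fructose 1,6-bisphosphate into a pair of triose phosphates, had 639, 980 and 915 TPM in ablated eyes at 2 dpi, against 415, 369 and 420 TPM in unablated eyes. At 4 dpi it had 724, 758 and 768 TPM in ablated eyes, against 588, 477 and 539 TPM in unablated eyes. The groups were apart at both times, and the log2 fold changes of 0.90 (standard error 0.20, adjusted p = 0.112) and 0.52 (standard error 0.11, adjusted p = 0.0541) did not pass edgeR's test by time. DESeq2, limma voom and both limma fits on TPM called aldoaa higher at both times. They called 5.0% to 6.11% of all genes higher at 2 dpi and 4.71% to 7.17% at 4 dpi. EdgeR over all 12 libraries called aldoaa at 2 dpi and not at 4 dpi. Triosephosphate isomerase tpi1b, which interconverts the trioses, had 734, 799 and 732 TPM in ablated eyes at 2 dpi, against 660, 456 and 527 TPM in unablated eyes, and 528, 529 and 553 TPM in ablated eyes at 4 dpi, against 477, 434 and 504 TPM in unablated eyes. These were apart as well, with log2 fold changes of 0.29 and 0.22 that did not pass (adjusted p = 0.491 and 0.329, edgeR). The gene tpi1b overlaps lpcat3 on the opposite strand, and the library method does not mark strand, so reads of the shared stretch cannot be told apart.

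**Figure D5:**
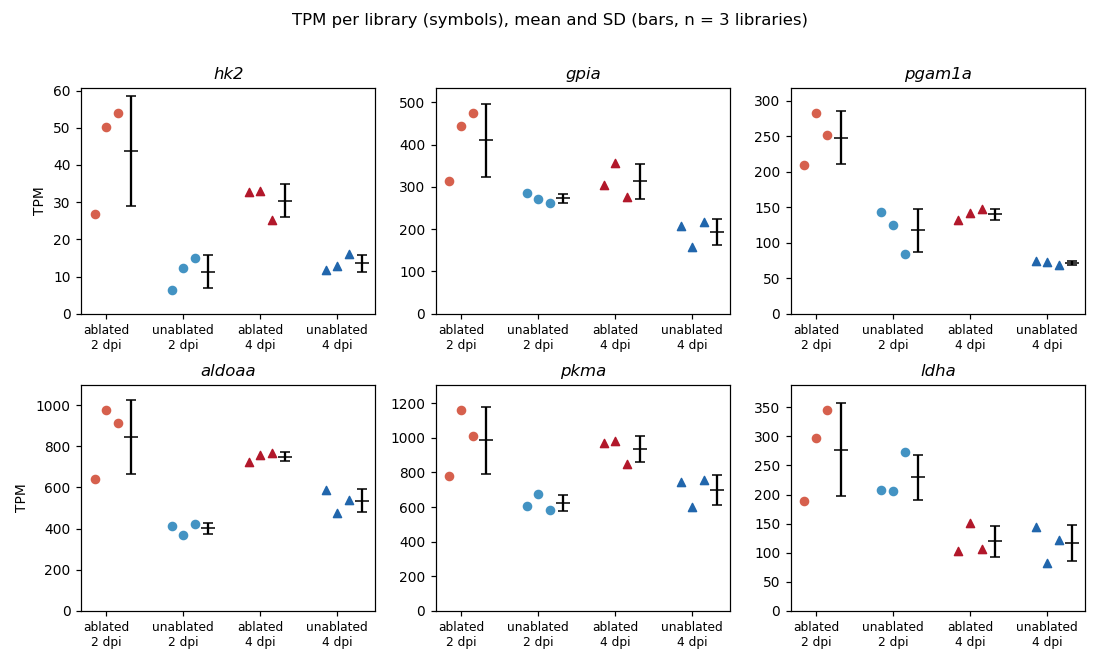
TPM of hk2, gpia, pgam1a, aldoaa, pkma and ldha per library, with the mean and SD of each group beside the symbols (n = 3 libraries). In the first 5 the ablated libraries lie above the unablated ones of the same time, and in ldha the 4 dpi libraries lie below the 2 dpi libraries of the same condition.

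In the lower part of the pathway, which recovers ATP, phosphoglycerate mutase carried the smallest p of all members. This enzyme moves the phosphate of 3-phosphoglycerate to the neighbouring carbon, and its main copy pgam1a lies on chromosome 13 at 31393192-31397987. At 4 dpi pgam1a had 132, 142 and 147 TPM in ablated eyes, against 74.2, 72.4 and 68.3 TPM in unablated eyes. The groups were far apart relative to their spread, and the log2 fold change was 1.00 (standard error 0.12, adjusted p = 0.0235, edgeR). At 2 dpi it had 210, 284 and 251 TPM in ablated eyes, against 143, 125 and 83.8 TPM in unablated eyes, with a log2 fold change of 0.91 (standard error 0.24) that did not pass (adjusted p = 0.148, edgeR). The other copy, pgam1b, had log2 fold changes of -0.65 at 2 dpi and 0.05 at 4 dpi, neither past the threshold, and at 2 dpi the sign turned with the photoreceptor covariate (0.0946) and without the photoreceptor-rich libraries (0.46).

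The enzymes on either side of it moved by less. The dehydrogenase gapdhs had 3702, 4583 and 4146 TPM in ablated eyes at 2 dpi, against 4717, 3189 and 2386 TPM in unablated eyes, which overlapped. At 4 dpi it had 3038, 3120 and 2945 TPM in ablated eyes, against 2638, 2328 and 2649 TPM in unablated eyes, which were apart (log2 fold change 0.29, adjusted p = 0.130, edgeR). Phosphoglycerate kinase pgk1, the first ATP-forming step, had 143, 199 and 172 TPM in ablated eyes at 2 dpi, against 156, 126 and 85.8 TPM in unablated eyes, and 140, 136 and 141 TPM in ablated eyes at 4 dpi, against 104, 85.1 and 117 TPM in unablated eyes. Its groups overlapped at 2 dpi and were apart at 4 dpi (log2 fold change 0.48, adjusted p = 0.114, edgeR).

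The enolase eno3, which forms phosphoenolpyruvate, had 148, 207 and 181 TPM in ablated eyes at 2 dpi, against 102, 123 and 131 TPM in unablated eyes, and 282, 248 and 243 TPM in ablated eyes at 4 dpi, against 221, 208 and 233 TPM in unablated eyes. The groups were apart at both times, with log2 fold changes of 0.42 and 0.25 that did not pass (adjusted p = 0.336 and 0.294, edgeR). Pyruvate kinase pkma, the second ATP-forming step, had 780, 1165 and 1013 TPM in ablated eyes at 2 dpi, against 607, 677 and 585 TPM in unablated eyes. At 4 dpi it had 971, 983 and 849 TPM in ablated eyes, against 743, 602 and 759 TPM in unablated eyes. Its groups were apart too (log2 fold changes 0.49 and 0.44, adjusted p = 0.247 and 0.0812, edgeR). The gene pkma overlaps the gene the annotation calls DHDH on the other strand, and their shared reads cannot be told apart.

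Lactate dehydrogenase showed no common direction at 2 dpi. The B form ldhba had 475, 635 and 720 TPM in ablated eyes at 2 dpi, against 692, 753 and 355 TPM in unablated eyes, which overlapped, and 549, 674 and 567 TPM in ablated eyes at 4 dpi, against 379, 398 and 480 TPM in unablated eyes, which were apart (log2 fold change 0.53, standard error 0.13, adjusted p = 0.0745, edgeR). The A form ldha (chromosome 25 at 25123385-25131755) had 189, 297 and 346 TPM in ablated eyes at 2 dpi, against 209, 206 and 274 TPM in unablated eyes. At 4 dpi it had 103, 151 and 106 TPM in ablated eyes, against 144, 82.3 and 121 TPM in unablated eyes. Its groups overlapped at both times, with log2 fold changes of 0.09 (standard error 0.27) and 0.07 (standard error 0.22). The second GLUT1 gene, slc2a1b, stayed at or below 2.97 TPM: it had 0.755, 0.0573 and 0.720 TPM in ablated eyes at 2 dpi, against 0.506, 1.08 and 1.14 TPM in unablated eyes, and 1.18, 0.979 and 0.256 TPM in ablated eyes at 4 dpi, against 2.97, 1.54 and 2.47 TPM in unablated eyes. It was apart at 4 dpi but did not pass (log2 fold change -1.50, standard error 0.86, adjusted p = 0.404, edgeR).

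The regulators gave no call in edgeR, whereas DESeq2 called pfkfb3 and pfkfb4b lower at 2 dpi and limma voom called pfkfb4b lower. The main one by level, pfkfb4b, makes and removes fructose 2,6-bisphosphate, the activator of phosphofructokinase. It had 133, 142 and 147 TPM in ablated eyes at 2 dpi, against 178, 305 and 155 TPM in unablated eyes, which were apart (log2 fold change -0.76, standard error 0.27, adjusted p = 0.244, edgeR). At 4 dpi it had 351, 323 and 167 TPM in ablated eyes, against 272, 330 and 386 TPM in unablated eyes, which overlapped. DESeq2 called it higher at 4 than at 2 dpi in ablated eyes. Its relative pfkfb3 was also lower in every ablated library at 2 dpi, with 11.9, 11.7 and 9.53 TPM in ablated eyes, against 14.2, 20.8 and 18.8 TPM in unablated eyes (log2 fold change -0.87, adjusted p = 0.158, edgeR). The kinase pdk1, which inhibits pyruvate dehydrogenase, had 4.58, 5.57 and 10.8 TPM in ablated eyes at 2 dpi, against 5.05, 2.54 and 7.96 TPM in unablated eyes. At 4 dpi it had 6.33, 10.1 and 5.63 TPM in ablated eyes, against 6.21, 6.19 and 9.78 TPM in unablated eyes. Its groups overlapped at both times.

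The 7 photoreceptor-linked members were chosen by their levels in the photoreceptor-rich and poor libraries, 2 of the rich being unablated at 2 dpi and 1 ablated at 4 dpi. The signs of their fold changes, and the shares among the members left over, are in part set by that choice. Both are given as a description. At 2 dpi all 7 were below 0, at -3.66 to -2.02 with standard errors of 1.04 to 2.68, and none passed edgeR's test. DESeq2 called tpi1a lower, beside 3.74% of all genes called lower. The lowest in edgeR were slc16a3 at -3.66, slc2a1a at -3.29 and eno1b at -3.13. At 4 dpi 5 of 6 tested were above 0, with eno1b at 1.44 (standard error 1.16) and pfkmb at 1.41 (standard error 1.24) the highest of all members. Among the 24 other tested members 16 were above 0 at each time, and with the photoreceptor share as a covariate 17 at 2 dpi and 16 at 4 dpi were. Without the photoreceptor-rich libraries 16 of 24 were above 0 at 2 dpi, against 1 remaining unablated library. At 4 dpi 14 of 25 were, where aldoca passed the filter as well. With the linked members kept in, 16 of 31 were above 0 at 2 dpi (median 0.03) and 21 of 30 at 4 dpi (median 0.24). Over all genes, from which no linked gene was removed, 45.8% were above 0 at 2 dpi and 47.4% at 4 dpi in the main fit. In the main fit, with the covariate and without the rich libraries, the medians of the members outside the linked set at 2 dpi were 0.19, 0.30 and 0.30. Over all genes they were -0.12, 0.22 and 0.18. At 4 dpi the medians were 0.13, 0.21 and 0.20, beside -0.04, -0.11 and -0.09 over all genes.

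A group of 7 members stood higher in every ablated library than in every unablated one at both times, namely hk2, gpia, aldoaa, tpi1b, pgam1a, eno3 and pkma. That order at 2 dpi left little room for a photoreceptor-linked gene among them. There, ablated library 3 was photoreceptor-poor and unablated libraries 1 and 2 were photoreceptor-rich. These 7 members are 1 gene each for 7 of the 10 steps from hexokinase to pyruvate kinase. They were 100% of the 7 members so ordered at 2 dpi and 70.0% of the 10 at 4 dpi, beside 47.0% and 67.1% over all genes tested at both times; 10.7% of those 15262 genes were higher at both times. No member's response differed between the times in the test of that difference: 0 of 31 passed (edgeR, 0.0% of 18079 genes), with 0 at an unadjusted p under 0.05, beside 5.86% of all genes, and 0 by DESeq2 and the 3 limma fits. The smallest adjusted p in that test was 0.852, for aldoaa.

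Between the times, ldha fell in ablated eyes. Its 103, 151 and 106 TPM at 4 dpi lay below the 189, 297 and 346 TPM at 2 dpi, with a log2 fold change of -1.31 (standard error 0.27, adjusted p = 0.0460, edgeR). It was the 1 of 31 tested members called, beside 1.29% of all genes, or 0.918% counting falls alone, and the groups did not overlap. In unablated eyes ldha had 144, 82.3 and 121 TPM at 4 dpi, against 209, 206 and 274 TPM at 2 dpi, again without overlap, and its log2 fold change of -1.20 (standard error 0.26) did not pass (adjusted p = 0.0669, edgeR). In ablated eyes hk1 (log2 fold change -1.68, adjusted p = 0.0504) and pgam1a (-0.90, adjusted p = 0.0512) came next. In unablated eyes 0 of 31 members passed, beside 0.868% of all genes (0.608% counting falls alone), with 10 at an unadjusted p under 0.05 (15.2% of all genes); DESeq2 called 1 higher and 7 lower at 4 dpi (2.08% and 5.66% of all genes), limma voom 1 higher and 2 lower (0.913% and 1.2%), and the 2 fits on TPM 1 higher each (3.52% and 3.24%). The 1 higher in each of these fits was eno3, with 102 to 131 TPM at 2 dpi and 208 to 233 TPM at 4 dpi. In ablated eyes eno3 had 148 to 207 TPM and then 243 to 282 TPM. Its groups did not overlap in either condition, and neither rise passed edgeR's test. DESeq2 and limma voom called eno3 higher in ablated eyes too, beside 2.83% and 3.03% of all genes called higher. Time after injury went with larval age and with the date in the library names, and these cannot be told apart. The call of ldha was lost without ablated library 2 or 3 at 2 dpi, without any single ablated library at 4 dpi, and without some unablated libraries, with adjusted p up to 0.231.

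Genes of neighbouring pathways were read from lists drawn up with earlier results of these data known. In the pentose phosphate pathway, which branches off at glucose 6-phosphate and supplies NADPH, 2 of 11 genes rose at 4 dpi in ablated eyes and none fell in edgeR's test, beside 1.83% and 1.88% of all genes. DESeq2 called 3 higher and 1 lower (7.17% and 7.03% of all genes). The dehydrogenase gene pgd had 606, 579 and 589 TPM in ablated eyes at 4 dpi, against 280, 299 and 365 TPM in unablated eyes (log2 fold change 0.94, standard error 0.14, adjusted p = 0.0301). The transaldolase gene taldo1 had 640, 701 and 659 TPM in ablated eyes, against 338, 294 and 428 TPM in unablated eyes (0.94, standard error 0.15, adjusted p = 0.0333). The median log2 fold change of the 11 was 0.77, with 8 above 0. At 2 dpi 10 of the 11 were above 0, with a median of 1.05, and 0 passed edgeR's test, with 8 at an unadjusted p under 0.05, beside 16.8% of all genes. Other tools called 5 (DESeq2) or 4 (limma voom, and limma on either log2 TPM) of them at 2 dpi, all higher in ablated eyes, beside 5.0% to 6.11% of all genes called higher.

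Of 20 tested genes for glycogen and gluconeogenesis, 1 rose and 1 fell at 4 dpi in edgeR's test, beside 1.83% and 1.88% of all genes. Glycogen synthase gys1 rose, with 7.79, 5.56 and 4.54 TPM in ablated eyes, against 2.54, 1.56 and 1.59 TPM in unablated eyes (log2 fold change 1.69, standard error 0.34, adjusted p = 0.0496, edgeR). The branching enzyme gene gbe1a was called lower (adjusted p = 0.0439, edgeR), at 0 TPM in all 3 ablated libraries at 4 dpi, against 1.14, 0.931 and 1.68 TPM in unablated ones. It passed the low-count filter only through the unablated libraries, so the call adds no support to these values. At 2 dpi gbe1a had 0, 0.102 and 0.0221 TPM in ablated eyes, against 0, 1.05 and 0.104 TPM in unablated eyes, which overlapped. At 2 dpi 0 of 19 passed edgeR's test, with 5 at an unadjusted p under 0.05, beside 16.8% of all genes. DESeq2 called 1 higher and 1 lower (5.52% and 3.74% of all genes), and limma voom 3 higher and 1 lower (5.0% and 1.08%). Of 29 tested genes of the hypoxia-inducible factor pathway, a known inducer of glycolytic genes, 13 were above 0 and 16 below at 4 dpi, with a median log2 fold change of -0.23. In edgeR's test 1 rose and 0 fell, beside 1.83% and 1.88% of all genes. DESeq2 called 1 higher and 3 lower (7.17% and 7.03% of all genes), and limma voom 1 higher (4.71%). The stress-responsive ndrg1a had 200, 201 and 196 TPM in ablated eyes, against 96.6, 83.2 and 78.9 TPM in unablated eyes (log2 fold change 1.24, standard error 0.12, adjusted p = 0.0188, edgeR). At 2 dpi ndrg1a had 167, 225 and 189 TPM in ablated eyes, against 262, 157 and 20.1 TPM in unablated eyes, which overlapped. Next by p at 4 dpi was hif1ab, a subunit of that factor, with a log2 fold change of -0.34 (adjusted p = 0.132, edgeR) that did not pass. At 2 dpi 8 were above 0 and 21 below, with a median of -0.54, and 0 of 29 passed edgeR's test. At an unadjusted p under 0.05 were 3, beside 16.8% of all genes. DESeq2 called 2 lower and limma voom 0, beside 3.74% and 1.08% of all genes called lower.

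Further glycolysis and transport genes outside the 35 gave 0 calls in edgeR, of 30 tested at 2 dpi and 31 at 4 dpi. At an unadjusted p under 0.05 were 7 and 4, beside 16.8% and 20.7% of all genes. DESeq2 called 1 higher and 3 lower at 2 dpi (5.52% and 3.74% of all genes) and 3 lower at 4 dpi (7.03%). Limma voom called 1 higher and 1 lower at 2 dpi (5.0% and 1.08%) and 1 lower at 4 dpi (4.81%). Those with the smallest p at 2 dpi were slc2a3a (a GLUT3 gene, log2 fold change -2.74), tigara (a phosphatase that opposes phosphofructokinase, 2.88) and slc16a8 (MCT3, a lactate transporter of the RPE, -4.09), with adjusted p of 0.108, 0.125 and 0.141. At 4 dpi bpgm (bisphosphoglycerate mutase, -1.25) and gpd1a (glycerol-3-phosphate dehydrogenase, -0.87) had the smallest p, with adjusted p of 0.0745 and 0.124. Genes that carry pyruvate into the mitochondrion and its dehydrogenase gave 0 calls in edgeR at both times. At an unadjusted p under 0.05 were 0 of 14 at 2 dpi and 4 of 15 at 4 dpi, beside 16.8% and 20.7% of all genes. DESeq2 and limma voom called 0 at 2 dpi. At 4 dpi DESeq2 called 2 and limma voom 1, all higher, beside 7.17% and 4.71% of all genes. The smallest p among them at 4 dpi was that of pdhb (a pyruvate dehydrogenase subunit), with a log2 fold change of 0.47 (adjusted p = 0.0731, edgeR).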

How the data were processed

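The authors' tables, per the file headers, give counts and TPM of each gene for 12 libraries in 24 columns, none of which was left out. Libraries were made with SMART-Seq HT and Nextera XT, per the labels' protocols, on sorts of at most 1000 cells. GRCz11 is named in the submitters' processing notes; the aligner and the counter were not given in the sources used here. The method does not mark strand, and counts of paralogues depend on how ambiguous reads were treated.

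Counts of all genes were tested with edgeR 4.0.16 (robust quasi-likelihood, TMM, default expression filter, Benjamini-Hochberg at 0.05) in R 4.3.3, by time for ablation and over 12 libraries for time. The scripts were tested on simulated counts with the same spread in every gene and no unequal photoreceptor shares. That checks the code and not the error rates in these libraries. DESeq2 1.42.0 and limma 3.58.1 served as alternatives. No explanation was tested.

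The members and all lists were chosen with earlier results of these data known. Given library by library were members called in any comparison, the highest by median TPM at each step, and the 3 highest and 3 lowest fold changes at each time. Genes of other lists were named where called, otherwise from the 3 smallest p (1 gene so chosen is not reported here); others named, such as hk1 and pgam1b, were chosen after their values were seen. Libraries of one number share a date in their titles at 2 dpi, which pairs them, and their deviations from group means correlated at 0.03 to 0.59. The 2 dpi errors and p-values above come from fits without these pairs. A block by number left no member called there, but 0.0% of all genes were called with or without it, so this cannot show its effect. With the block 22.6% of all genes stood at an unadjusted p under 0.05 (edgeR), against 16.8% without it.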

Additional observations from a re-analysis of the deposited data

How the results depend on the processing

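Of the low members 4 did not pass edgeR's default filter, and the cause of their low counts was not tested. Among them aldoca passed it at 4 dpi without the photoreceptor-rich libraries. Of the 3 members called at 4 dpi, leaving out 1 library gave 0 to 4 calls, and at 2 dpi 0 to 0; adjusted p of hk2, pgam1a and gpia reached 0.114, 0.104 and 0.142 without 1 library, with log2 fold changes of 1.08 to 1.38, 0.93 to 1.07 and 0.62 to 0.85. A block by replicate number gave 0 calls at 4 dpi, where the numbers were not taken to pair libraries (same-numbered libraries correlated at -0.40 to -0.14), and 0 for 4 versus 2 dpi in ablated eyes. It changed no other count of members called, each of which was 0 without it too. DESeq2 called 6 members at 2 dpi and 9 at 4 dpi (9.26% and 14.2% of all genes), limma voom 4 and 8 (6.08% and 9.52%), and limma on log2(TPM + 1) 2 and 5 (6.39% and 12.2%); log2(TPM + 0.1) gave 1 at 2 dpi (5.67%). A fit over all 12 libraries gave 5 at 2 dpi and 1 at 4 dpi (6.32% and 1.23% of all genes). At 4 dpi hk2 and gpia had adjusted p of 0.132 and 0.0823 in that edgeR fit. Without the photoreceptor-rich libraries 4 members were called at 4 dpi, beside 8.32% of all genes.

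For 4 versus 2 dpi in ablated eyes, calls numbered 0 with DESeq2's size factors, with no filter and without photoreceptor-rich libraries, 3 with a strict filter, with the photoreceptor covariate and with library sizes without photoreceptor counts, 6 with DESeq2 (6.91% of all genes), 8 with limma voom (11.1%), and 0 to 4 without 1 library. Of all genes, 1.03% were called there with DESeq2's size factors and 0.49% with no filter. The strict filter, the covariate and the changed library sizes called 2.6%, 2.38% and 1.4%. In unablated eyes calls numbered 2 with DESeq2's size factors and with a strict filter (1.55% and 1.9% of all genes). DESeq2 gave 8 (7.74%), limma voom 3 (2.11%), and either TPM fit 1 (5.02% and 4.85%). Leaving out 1 library gave 0 to 4, 4 being without unablated library 3 at 2 dpi (2.6%). The fit without photoreceptor-rich libraries left 1 unablated library at 2 dpi and is not counted for this comparison. The difference between responses gave 0 in all alternatives (0 to 0 without 1 library), and the photoreceptor-linked set held 7 members under limits of 1% and 0.5% and in TPM.

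Signs turned in members that were not called. At 2 dpi the log2 fold change with the photoreceptor covariate and without photoreceptor-rich libraries was 4.86 and 13.25 for eno1b, 3.51 and 10.08 for slc2a1a, 2.00 and 9.67 for slc16a3, 3.28 and 8.66 for pfkmb, 1.48 and 3.03 for aldocb, 0.0946 and 0.46 for pgam1b, 0.17 and 0.43 for ldhba, and -0.19 and -0.33 for ldha. The second value of each pair is against 1 unablated library, assumed to vary like the ablated ones; it held 0 counts of eno1b, slc2a1a, slc16a3 and pfkmb, so those 4 values depend on the prior count and give no size or bound. For ldhba the fits on log2(TPM + 1) and log2(TPM + 0.1) gave 0.0758 and 0.0760. DESeq2's size factors, DESeq2 and the strict filter gave -0.0620, -0.0621 and -0.0232 for ldha, and -0.0703, -0.0703 and -0.0077 for gapdhs, which was -0.0073 with library sizes without photoreceptor counts; for pfkla the size factors gave -0.0222, DESeq2 -0.0201 and limma voom -0.36. Without 1 library the values ran over -0.31 to 0.48 for pfkla, -0.0844 to 0.36 for gapdhs and -0.0936 to 0.30 for ldha. At 4 dpi without photoreceptor-rich libraries (ablated library 2) the values were -0.91 for pfkmb, -0.54 for eno1b, -9.06 for slc16a3 and -0.0400 for ldha (slc16a3 was at 0 in both remaining ablated libraries, so its value gives no size), and without 1 library they ran over -0.91 to 1.91, -0.54 to 2.51, -9.06 to 3.51 and -0.0986 to 0.24, and over -0.44 to 0.0360 for pfkfb4b; limma voom gave -0.36 for pfkmb and -3.71 for slc16a3, which was -5.18 with the block and -3.38 with the covariate. The causes were not tested. The median log2 fold change of all genes at 2 dpi was -0.12 here, -0.28 with DESeq2's size factors and 0.18 on log2(TPM + 1).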

Other observations

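In the photoreceptor-poor libraries slc2a1a was near 0 and slc2a1b had 0.256 to 1.54 TPM. In the photoreceptor-rich ones slc2a1b was low too, at 0.506 to 1.08 TPM. The levels of the other sugar transporters are therefore of interest, and they were looked up after the members' values were seen. Of 17 genes of the slc2a family in the tables, slc2a6 (GLUT6) had the highest median, 27.3 TPM, and 8.68 to 35.5 TPM in the 5 photoreceptor-poor libraries. It was followed by slc2a12 (GLUT12) at 12.1 TPM and slc2a8 (GLUT8) at 10.4 TPM. Among lactate transporters the highest median was that of slc16a1b, an MCT1 gene, at 6.17 TPM, with 1.64 to 12.1 TPM in the photoreceptor-poor libraries. Its sister slc16a1a had a median of 0.237 TPM and at most 23.8 TPM. The gene bsg, which encodes basigin, the chaperone of these transporters at the cell surface, had 48.3 to 96.6 TPM in the 12 libraries.

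At 2 dpi both libraries of number 3, which share a date, were photoreceptor-poor. The ablated library held 54.1 TPM of hk2 and 251 TPM of pgam1a, against 15.1 and 83.8 TPM in the unablated library. Higher levels there were not particular to these genes. All members together summed to 9523 TPM, against 5457 TPM, and the photoreceptor-linked members to 108 TPM, against 24.1 TPM. The regulators (167 TPM, against 181 TPM) and the glucose transporter members (0.720 TPM, against 1.14 TPM) were lower. The pair has no replicates, and the cause of these differences was not tested.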
